A study of Mus musculus with 24 samples.

Results

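The ribosomal protein genes were taken as the protein-coding genes of the deposited peak annotation named Rpl or Rps with a number, together with Rpsa, Rplp0, Rplp1 and Rplp2, leaving out the Rps6k kinases. Of 93 such names, 71 had at least 1 ATAC-seq peak whose annotated distance to the transcription start site (TSS) was 1000 bp or less, out of 14561 genes of any type with such a peak. Their promoters comprised 80 peaks of 150646: 62 members had 1 peak and 9 had 2. The other 22 names had only peaks farther away; many of them are processed copies. The 71 members divide into 26 proteins of the small subunit, 38 of the large subunit and 7 paralogs or genes that share the name (Rpl22l1, Rpl7l1, Rps19bp1, Rps27l, Rps4l, Rpl9-ps1 and Rps26-ps1).

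The assay was ATAC-seq, where the transposase Tn5 inserts adapters into open chromatin, on small intestinal epithelial cells taken directly from C57BL/6JRj mice. No genetic change or treatment is stated for either group, and they differed in age: 3 young and 3 aged libraries, numbered 1, 2 and 4 in each. The design text gives 2 to 3 months for young and 20 to 22 months for aged animals, in sentences about other assays of the study. Cells were released with EDTA and trypsin and sorted as EpCam+ and CD45-, a gate for epithelial cells, and since no label ties a library to a mouse of its own, p-values cover the spread between libraries, which may be technical.

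Ribosomal proteins assemble with ribosomal RNA into the small subunit, which decodes the mRNA, and the large subunit, which forms peptide bonds. Their genes are expressed in all cells from compact promoters that lie at the start site, and their mRNAs typically begin with a terminal oligopyrimidine tract, a run of C and T bases through which mTOR signalling and the protein LARP1 control translation. In the intestinal epithelium, which renews itself from crypt stem cells, ribosome production is tied to cell growth and division.

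The promoters below show the sequences of this gene class: 3 of the most accessible, Rps21, Rps19 and Rpl37, with Rps6, a regulated small subunit protein, and Rps9, which had the lowest p among the core proteins. Capitals mark matches to CCGGAAG, the core of ETS family sites, to the GC box GGGCGG, and to the word TCTCGCGA, read on either strand. Each line holds the 100 bases before the start, 5′ to 3′ on the gene's strand.
Rps21: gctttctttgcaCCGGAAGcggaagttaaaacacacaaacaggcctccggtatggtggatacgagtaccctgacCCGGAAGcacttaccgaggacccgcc
Rps19: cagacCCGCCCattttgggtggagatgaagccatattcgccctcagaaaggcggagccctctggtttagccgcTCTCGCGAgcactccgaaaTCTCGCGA
Rpl37: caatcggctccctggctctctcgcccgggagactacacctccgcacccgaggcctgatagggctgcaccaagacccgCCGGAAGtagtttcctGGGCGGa
Rps6: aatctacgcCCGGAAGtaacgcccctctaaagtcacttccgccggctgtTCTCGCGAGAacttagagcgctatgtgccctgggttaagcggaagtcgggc
Rps9: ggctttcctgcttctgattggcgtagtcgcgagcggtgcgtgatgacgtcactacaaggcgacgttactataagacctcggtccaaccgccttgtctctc
These are RefSeq sequences of GRCm38.p6. Rps21 lies at chr2:180257279-180257378 on the plus strand, Rps19 at chr7:24884492-24884591 (plus), Rpl37 at chr15:5116513-5116612 (plus), Rps6 at chr4:86857368-86857467 (minus) and Rps9 at chr7:3703941-3704040 (plus). Rps21 held 2 ETS cores in this stretch, and Rps9 held none of the words searched.

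The bases around the RefSeq start are shown for 4 members with a long run of C and T and for Rps3, which had a run of 3. Each line is 30 bases, 15 on either side of the RefSeq start, with the longest run within these bases in capitals.
Rpl27a: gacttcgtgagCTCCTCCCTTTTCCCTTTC
Rpl35: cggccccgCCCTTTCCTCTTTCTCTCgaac
Rpl13a: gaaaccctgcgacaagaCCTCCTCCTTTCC
Rps9: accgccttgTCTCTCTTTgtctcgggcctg
Rps3: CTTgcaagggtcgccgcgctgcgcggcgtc
The windows are chr7:109519180-109519209 (plus) for Rpl27a, chr2:39005117-39005146 (minus) for Rpl35, chr7:45128731-45128760 (minus) for Rpl13a, chr7:3704026-3704055 (plus) for Rps9 and chr7:99483695-99483724 (minus) for Rps3. The capitals run for 19 bases in Rpl27a, 18 in Rpl35, 13 in Rpl13a and 9 in Rps9. These runs begin 4 bases before the start in Rpl27a, 7 before it in Rpl35 and 6 before it in Rps9. In Rpl13a the run begins 2 bases after the start. They are thus runs near the RefSeq start and not tracts that begin at it. Among the 51 members with an entry in the RefSeq table, 23 (45.1%) held a run of 8 or more within 25 bases of the start, against 18.9% of 17492 protein-coding promoter entries, and 16 (31.4%) had C at the start base, against 13.7%. A C at the start base that opened a run of at least 4 C or T bases was found in 9 members (17.65%), against 3.173%. Most members thus did not show such a tract at the RefSeq start.

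Over the window from 250 bases before to 50 after the start, searched on both strands, the ETS core CCGGAAG was present in 18 of 51 members (35.3%) and in 11.9% of all protein-coding entries. The word TCTCGCGA was present in 9 members (17.6%) and in 1.51% of all entries; the longer palindrome TCTCGCGAGA holds a match on each strand. The YY1 core AAGATGG was in 8 members (15.7%, against 6.37%) and the GC box in 31 (60.8%, against 46.3%). The TATA box TATAAA was in 5 members (9.80%, against 13.3%), the E-box CACGTG in 5 (9.80%, against 7.90%) and the NRF1 core GCGCATGC in 2 (3.92%, against 3.61%). None of the searched words contains another, and a match is a description of letters, not of binding. The median GC content was 58.3% in members and 56.3% in all entries. Members were chosen for a promoter peak in these cells, and the protein-coding entries were not. The shares of words and of runs were not compared with those of other genes that have such a peak.

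**Figure D1:**
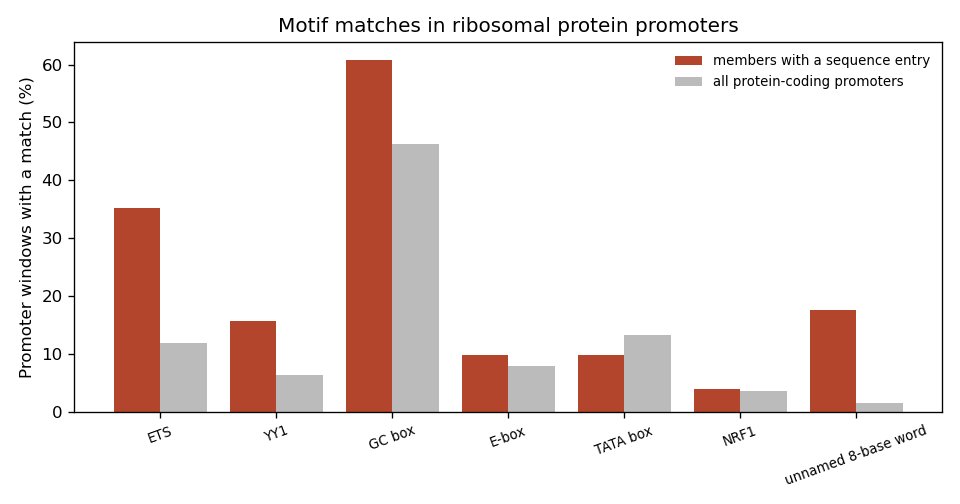
Share of promoter windows (%, y axis) that held each searched word (x axis) for the 51 members with a RefSeq entry and for all 17492 protein-coding entries. The 3 widest gaps in ratio are the 8-base word without a factor name (17.6% against 1.51%), the ETS core (35.3% against 11.9%) and the YY1 core (15.7% against 6.37%).

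Levels compared between genes are given as CPM (promoter counts scaled to library size) per kb of counted peak length, averaged over the 6 libraries. The members had a median of 109 CPM per kb, against 85 for all protein-coding promoters, and 53 of 71 lay above that protein-coding median. In all, 23 were in the upper quartile of protein-coding promoters and 1, Rps4l, was in the lower quartile. Counted peak length had a median of 772 bp against 725 bp, and member peaks lay a median of 126 bp from the TSS (4 to 973 bp), against 208 bp for protein-coding promoter peaks. Of the 80 peaks, 69 were annotated as promoter-TSS, 7 as intron, 3 as termination site and 1 as exon.

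Among the highest levels were 397 CPM per kb at Rpl13a, a large subunit protein that also takes part in translational silencing of inflammatory mRNAs, 318 at Rps21 and 304 at Rpl37. The 4 lowest were 13.1 at Rps4l, 41.9 at Rpl9, 43.9 at the copy Rpl9-ps1 and 45.5 at Rpl4, a large subunit protein that lines the peptide exit tunnel. The counted Rpl9 peak, chr5:65390291-65390438, lay 622 bp inside the gene. The peak over its RefSeq start, chr5:65391060-65391676, was assigned to the neighbouring Lias, with an edgeR log2 fold change of -0.20 (Benjamini-Hochberg adjusted p = 0.785). Rpl9 was the only one of 51 members with a RefSeq start whose counted peaks did not cover that start. The coefficient of variation among the 3 young libraries had a median of 6.98% in members and 8.70% in protein-coding promoters. The median promoter CPM was 87.6 in members and 65.6 in protein-coding promoters, and counting noise is smaller at higher counts. Its part in the coefficients was not tested.

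Age was tested with edgeR's quasi-likelihood test over 13880 promoters, and all 71 members passed its filter on low counts. Age was the only term, so a pairing by replicate number was left out of this test. With the number as a block, Rps9 was called lower as well (edgeR adjusted p = 0.0213). No member was called higher in aged epithelium and 1, Rps4l, was called lower at a Benjamini-Hochberg adjusted p below 0.05. Over all tested promoters 107 (0.771%) were called higher and 135 (0.973%) lower. At an unadjusted p below 0.05 there were 5 members, against 8.93% of all promoters (1239). DESeq2 likewise called 0 members higher and 1 lower. Per peak, 0 of the 80 member peaks were called higher and 1 lower, where 1.07% and 0.528% of all 129588 tested peaks were.

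**Figure D2:**
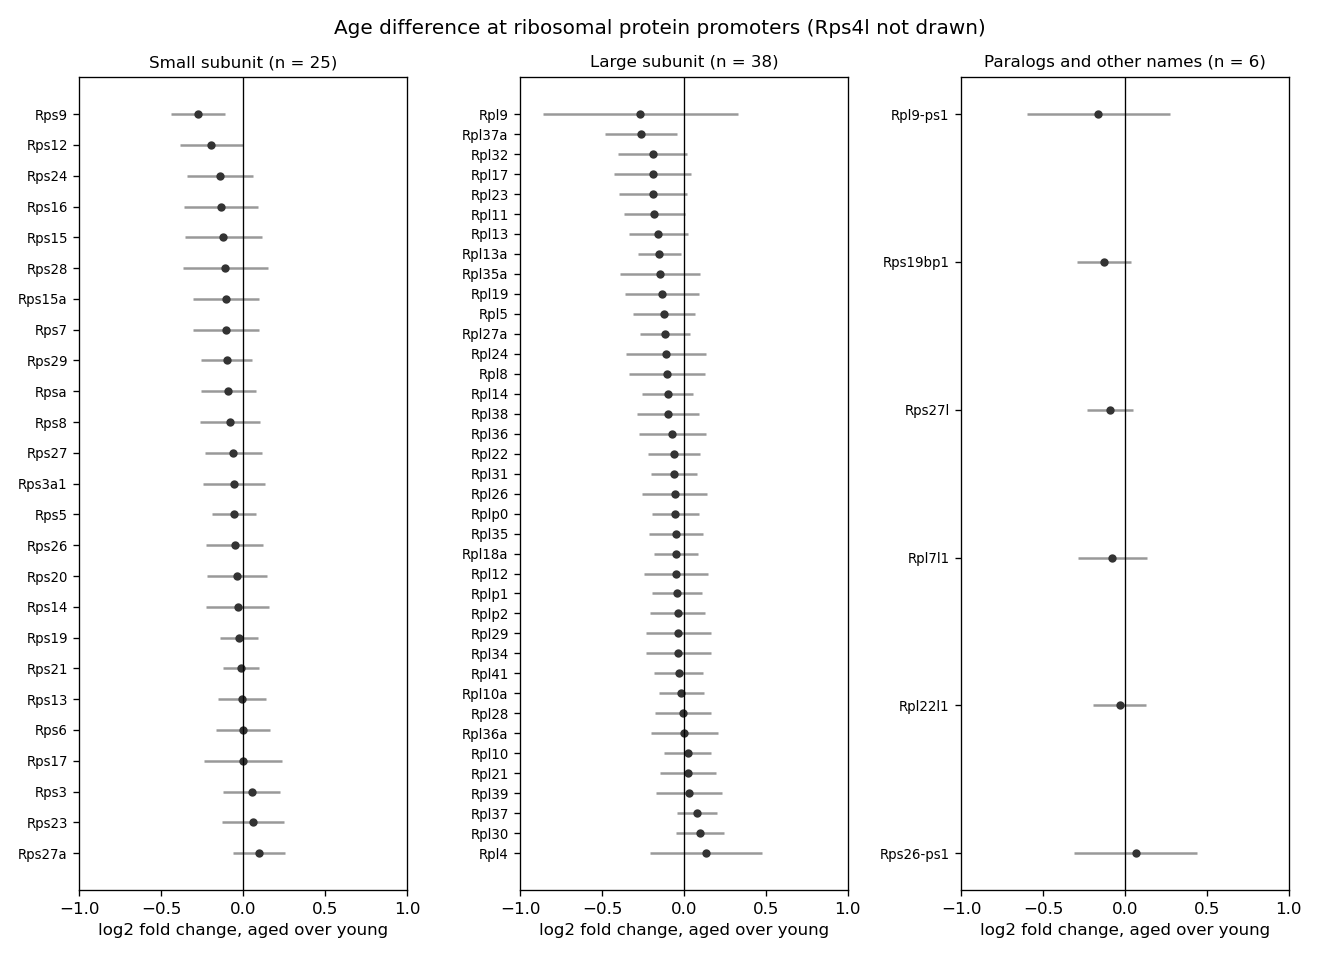
Log2 fold change of aged over young (x axis) with its 95% interval for the members reported here, by subunit; points are edgeR estimates from 3 libraries per age, and Rps4l (-3.32) is left out for scale. Most points lie left of 0, and most intervals cross it.

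The differences of the other 70 members were small. The log2 fold change of the 71 had a median of -0.06, and 60 (84.5%) lay below 0, where all tested promoters had a median of -0.0017 and 50.6% below 0. The small subunit had a median of -0.06 with 23 of 26 below 0, the large subunit -0.06 with 31 of 38, and the paralogs and other names -0.09 with 6 of 7. The 95% interval lay within 1.5-fold either way for 68 members; Rps4l, Rpl9 and Rpl9-ps1 were the exceptions. It lay wholly below 0 for 5 members (Rps4l, Rps9, Rpl37a, Rpl13a and Rps12) and wholly above 0 for none.

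Rps4l, a copy of the gene for the small subunit protein Rps4x, gave the largest difference. Its promoter CPM was 1.92, 1.38 and 1.58 in the aged libraries 1, 2 and 4, against 18.4, 12.4 and 18.7 in the young ones. All 3 aged libraries lay below all 3 young ones, with raw counts of 11, 11 and 9 against 148, 83 and 37. The mean was 1.62 ± 0.275 (SD, n = 3) in aged and 16.5 ± 3.59 (SD, n = 3) in young, a log2 fold change of -3.32 (SE 0.29), or 10.0-fold lower with a 95% interval of 6.59 to 15.2 (edgeR, Benjamini-Hochberg adjusted p = 3.54e-08). Leaving out any library or changing scaling, filter, window or test kept it between -3.51 and -3.19.

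The Rps4l peak, chr6:148354516-148355207 in GRCm38, lay 205 bp from the annotated TSS in its single exon. RefSeq lists the locus as a transcribed pseudogene of 941 bp, chr6:148354656-148355596, which the peak overlapped by 552 bp. Such a copy resembles its source gene, so reads can be split between them by mapping, and its value is uncertain for that reason. The peak over the start of Rps4x, X-linked and outside the members because its annotated distance was over 1000 bp, had a log2 fold change of -0.03 (edgeR adjusted p = 0.991). Whether reads were split between these genes was not tested. A further 7 peaks were assigned to Rps4l, 9426 to 39963 bp away; 3 could be tested, none was called, and their log2 fold changes ran from -0.63 to -0.26. Of 10 tested peaks assigned to the host gene Tmtc1, none was called.

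**Figure D3:**
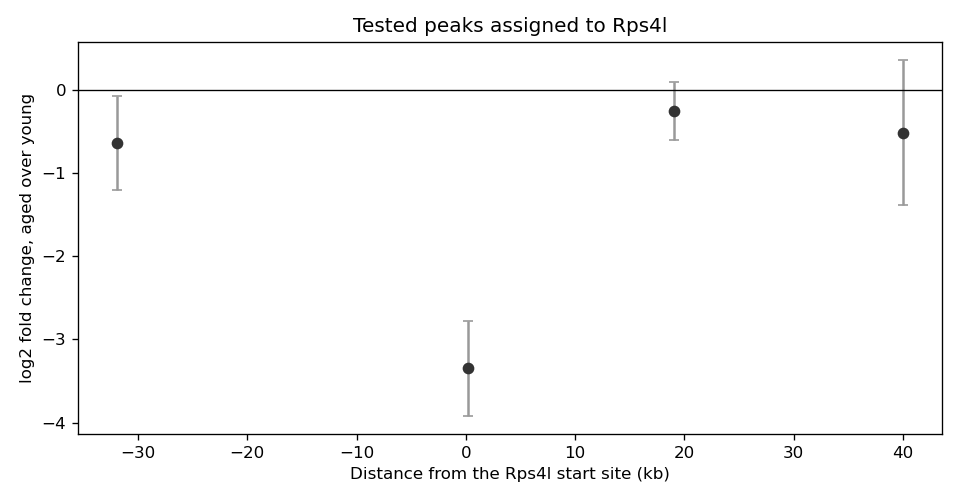
Log2 fold change of aged over young (y axis, 95% interval) for the 4 tested peaks assigned to Rps4l, by distance from its start site in kb (x axis). The peak over the gene, at -3.35, lies below the other 3, which range from -0.63 to -0.26.

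Rps9, a small subunit protein near the mRNA entry channel, had the next smallest p. Its promoter CPM was 79.0, 78.0 and 80.4 in the aged libraries 1, 2 and 4, against 93.5, 97.7 and 96.8 in the young ones. The groups did not overlap, and each was tight. The log2 fold change was -0.28 (SE 0.08), with an adjusted p of 0.0970 by edgeR with Benjamini-Hochberg adjustment, so it was not called. With the replicate number as a block it was -0.281 with an adjusted p of 0.0213 (edgeR), and the members called lower then numbered 2 (Rps4l and Rps9), where 1.81% of all promoters (251) were. Across all alternatives its adjusted p ran from 0.0213 to 0.516.

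The other members with small p-values were not called. Rpl37a, a zinc-binding large subunit protein, had aged CPM of 50.8, 59.1 and 47.3 and young CPM of 58.8, 63.8 and 70.4, so the groups overlapped by 1 library (log2 fold change -0.26, SE 0.11, edgeR adjusted p = 0.386). Rpl13a had 227, 217 and 202 CPM in the aged libraries, all below the young ones with 231, 232 and 262, a log2 fold change of -0.15 (SE 0.06, edgeR adjusted p = 0.422). Rps12 had -0.19 (edgeR adjusted p = 0.560), Rpl11, which binds Mdm2 in ribosome stress, -0.18 (0.575) and Rpl32 -0.19 (0.651). In Rpl32 the aged libraries, 45.9, 45.9 and 47.6, all lay below the young ones, 54.9, 51.0 and 53.2. Non-overlapping values lower in aged were seen in 8 members (Rps4l, Rps9, Rpl13a, Rpl32, Rpl13, Rpl14, Rpl23 and Rps27l), beside 7.02% of all promoters, and higher in 1 (Rpl30, log2 fold change 0.10), beside 7.01%.

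**Figure D4:**
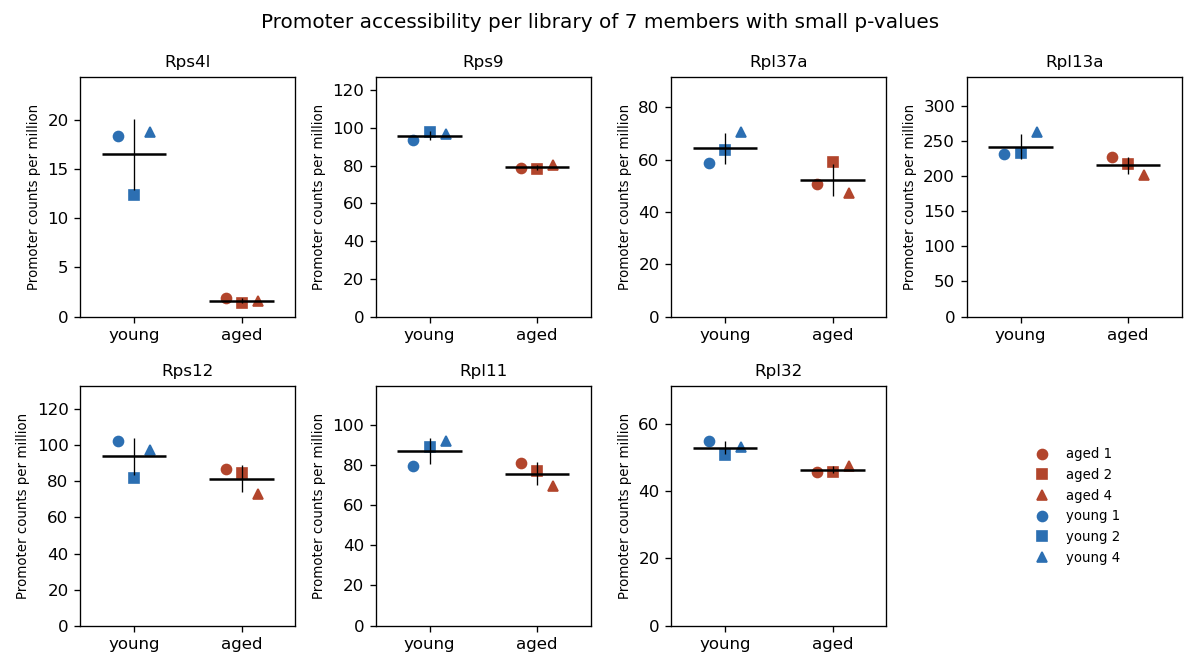
Promoter CPM (y axis, from 0) of 7 members with small p-values in each library, by age; horizontal lines are means of 3 libraries and vertical lines 1 SD. Rps4l separates by the widest ratio, with aged libraries between 1.38 and 1.92 and young ones between 12.4 and 18.7.

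The stalk proteins, which recruit translation factors, differed little: the log2 fold change was -0.05 (95% interval -0.20 to 0.09) for Rplp0, -0.04 for Rplp1 and -0.04 for Rplp2. Among small subunit proteins, Rpsa, which doubles as a laminin receptor, had -0.09, Rps19, mutated in Diamond-Blackfan anaemia, -0.03, and Rps3 0.05. Rps6, the target of S6 kinase, had aged CPM of 110, 123 and 105, young CPM of 120, 107 and 110, and a difference of -0.0022 on the log2 scale. The sign reversed with DESeq2, with the replicate block, and without aged 1, aged 4 or young 1. The signs of Rplp1, Rplp2 and Rps19 also reversed when 1 library was left out. Rps27a, made as a fusion with ubiquitin, had 0.09 and Rpl5, a 5S RNA partner of Rpl11, -0.12.

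Rpl22 had -0.06 and its paralog Rpl22l1 -0.03, while Rps27l, a p53-induced paralog of Rps27, had -0.09. The signs of Rpl22 and Rpl22l1 reversed without 1 library. The 3 X-linked members, Rpl10, Rpl39 and Rpl36a, had a median of 0.02 and none was called, and the 13 members on chromosome 7 had a median of -0.06. The highest log2 fold change of any member was 0.13, at Rpl4 (SE 0.16). With age as the only term, edgeR called none of the named members other than Rps4l.

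The members lay lowest in aged 4. The median log2 deviation of the members from their own mean over the 6 libraries was 0.07, 0.01 and 0.02 in young 1, 2 and 4, and 0.01, -0.0035 and -0.12 in aged 1, 2 and 4. In aged 4, 62 of 71 members lay below their mean, while protein-coding promoters had medians between -0.0028 and 0.02 in all 6 libraries. Setting the aged library over the young one of the same number, the members' median was -0.03 for number 1 (44 of 71 lower), -0.0071 for number 2 (41 lower) and -0.15 for number 4 (57 lower). Without aged 4 the median over members was -0.01 with 49 of 71 below 0, and without young 1 it was -0.04. Leaving out any other library left it between -0.09 and -0.07.

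**Figure D5:**
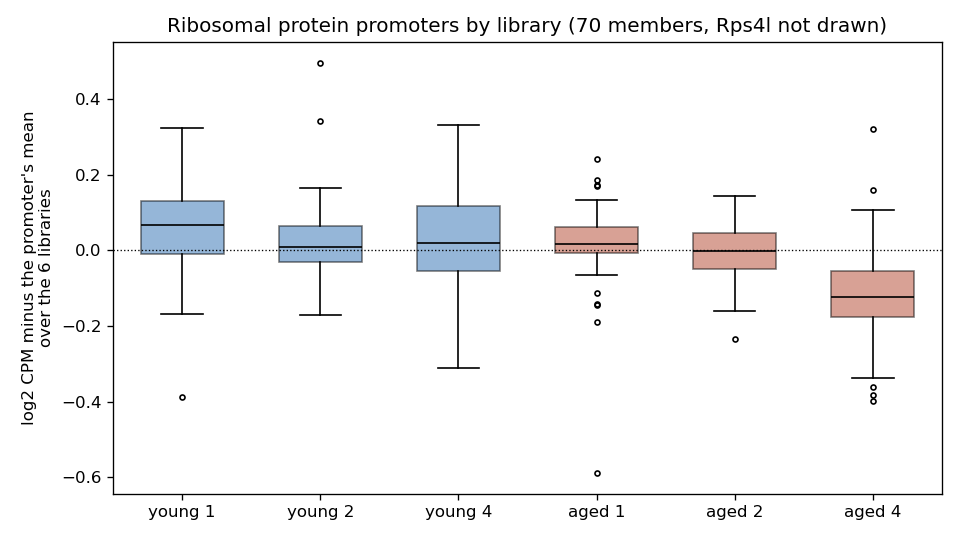
Log2 CPM of each of 70 members minus its mean over the 6 libraries (y axis), as box plots per library (box, quartiles; line, median; whiskers, 1.5 times the interquartile range; points, beyond). Aged 4 lies lowest, and aged 1 and aged 2 have medians near those of young 2 and young 4.

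Members held 0.693%, 0.693% and 0.647% of promoter counts in the aged libraries 1, 2 and 4, against 0.715%, 0.70% and 0.714% in the young ones. The aged mean was 0.678% ± 0.0268 and the young mean 0.710% ± 0.00817 (SD, n = 3 each), given with no test because it is a sum over the members. Counts in all peaks totalled 6149680 to 23935291 per library, lowest in young 4, and 1965310 to 8113742 fell in promoters. A member had a median of 178 to 720 counts per library, with a lowest of 9 (Rps4l).

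At marker promoters, 12 of 14 epithelial markers had a counted peak, all but Vil1 and Krt19. These 12 held 0.117% to 0.122% of promoter counts in each library. A peak assigned to a neighbouring gene was not counted, so a marker without a counted peak need not have a closed promoter. Of 14 leukocyte markers 2 had a counted peak, Cd68 and Coro1a, while Ptprc and Cd3e had none. Cd68 and Coro1a held 0.00423% to 0.00456% of promoter counts in 5 libraries and 0.00643% in aged 4, the library with the lowest ribosomal protein share. The 6 promoters matched to the 14 stromal, endothelial and neural markers held 0.00810% to 0.00896% in 5 libraries and 0.00946% in aged 4. They include Sox21, which is not a listed marker and was matched as an alias of Sox10, itself without a promoter peak. Sox21 had a mean of 33.9 CPM in aged and 33.5 in young, so these shares are not of listed markers alone. The part of leukocytes and of stromal, endothelial or neural cells in the members' values was not tested.

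Core ribosomal proteins left out by the rule were looked up after values had been seen. Of 13 core proteins without a counted peak, 10 had a RefSeq start and all 10 had a peak over it, but 7 of those peaks were assigned to another gene, such as Trappc4 for Rps25 and Med22 for Rpl7a, and those of Rps4x, Rps18 and Rpl27 to their own gene at a distance beyond 1000 bp. None of the 10 peaks was called by edgeR, 0 had an unadjusted p below 0.05, and their log2 fold changes ran from -0.18 (Rps2) to 0.08 (Rps25), with a median of -0.09. The peak at Fau, whose product is fused to a ubiquitin-like protein, had -0.15, and that at Rack1, a scaffold on the small subunit, -0.13. In 7 members the counted peak also held the start of another gene on the opposite strand, such as Ndufa7 for Rps28 and Rab13 for Rps27, and their counts cannot be divided between the genes.

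Farther from the promoters, 161 peaks assigned to members were tested and 0 were called by edgeR, where 1.07% of all tested peaks were called higher and 0.528% lower. At an unadjusted p below 0.05 there were 10 of the 161, against 8.82% of all tested peaks. Among the 94 tested distal peaks of names without a promoter peak, 4 were called higher, beside the same 1.07%: 1 nearest Rpl7 (log2 fold change 1.75), 2 nearest Rps2-ps6 (0.74 and 0.84) and 1 nearest Rpl9-ps6 (0.98). These 4 peaks were named after their values were seen. The Rpl7 peak had low values, with a mean CPM of 0.98 in aged and 0.30 in young. The 2 Rps2-ps6 peaks were neighbours, at chr14:76278121-76278548 and chr14:76278708-76279294.

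Related gene lists were set beside the members. Over all tested promoters 50.6% lay below 0, 0.771% were called higher and 0.973% lower. Of other translation genes with the same kind of mRNA start, 17 of 24 were tested, 0 were called and the median log2 fold change was -0.06, with 15 below 0. Of 51 names listed for ribosome biogenesis, 38 were tested and 0 called, with a median of -0.02 and 25 below 0. The 38 and the 25 include Nrap, which is not a ribosome biogenesis gene (log2 fold change -0.12, mean 2.67 CPM). Of 71 mitochondrial ribosomal protein genes, 59 were tested and the median was -0.04 with 41 below 0. Mrps5, of the mitochondrial small subunit, was the 1 gene called higher, with a log2 fold change of 1.22 (SE 0.27, edgeR with Benjamini-Hochberg adjusted p = 0.0108). No gene of these 3 lists was called lower.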

How the data were processed

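Members, lists and tests were chosen with earlier results of these data known. The authors deposited raw counts per consensus peak for 6 libraries, whose 4 sequencing lanes share 1 column, with an annotation of each peak's nearest gene. The submitters' processing notes name BWA 0.7.17-r1188, MACS2 2.2.7.1, featureCounts 2.0.1, Picard 2.23.1 and Trim Galore 0.6.4, with build GRCm38; peak settings, Tn5 offset, the unit counted (reads or fragments): not given in the sources used here. Counts were summed per gene over peaks within 1000 bp of the TSS and tested with edgeR 4.0.16 (R 4.3.3): filterByExpr, TMM, robust quasi-likelihood fit with age as the term, Benjamini-Hochberg adjustment over all promoters, threshold 0.05. DESeq2 1.42.0, other scalings, windows of 500 and 3000 bp, no filter, a replicate block and leaving out each library were alternatives. Named genes were those called, the 8 smallest p-values, the 4 highest and 4 lowest levels and a fixed list of members. A gene that the rule names is not reported here. Intervals are 95%. RefSeq matched 51 of 71 members by symbol.

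Replicate numbers 1, 2 and 4 occur at both ages. Deviations from the age means correlated at 0.277, 0.115 and 0.197 between same-numbered libraries, all above the criterion of 0.1. Different-numbered pairs lay between -0.202 and 0.0128. Deviations cancel out within an age, so these values are not independent of those of same-numbered pairs. By the criterion the numbers were taken as a possible pairing. The correlations cannot establish it, and no label explains the numbers. The main test still had age as its only term, so its calls and intervals leave this pairing out. With the block, promoters called lower numbered 251 instead of 135, Rps9 among them. Between same-age libraries the chi-square per promoter ran from 2.18 to 3.20. How far this exceeds sampling noise depends on the unit counted (reads or fragments), which is not given.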

Additional observations from a re-analysis of the deposited data

How the results depend on the processing

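With 3 libraries per age, the interval reached beyond 1.5-fold either way for Rps4l, Rpl9 and Rpl9-ps1. The call of Rps4l and the absence of members called higher were kept under every alternative run. Under the replicate block the members called lower numbered 2, both for promoters and for single peaks, because Rps9 was added (-0.281, adjusted p = 0.0213 by edgeR); the block changed no other member's call. The median over members was negative under every alternative and ran from -0.0934 to -0.0119 when 1 library was left out. The share of promoter counts in members moved with the window by construction: 0.744% in aged and 0.779% in young at 500 bp, 0.576% and 0.604% at 3000 bp. Over all promoters, calls were 107 higher and 135 lower; the block gave 213 and 251, the 3000 bp window 167 higher, and leaving out aged 4 or young 2 gave 64 or 67 higher.

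Signs near 0 were reversed for Rps21 with the 3000 bp window (0.000968) and for Rps6 with DESeq2 (0.000649) and with the block (0.0108); the cause was not tested. Leaving out 1 library gave log2 fold changes of -0.0349 to 0.00386 for Rps21, -0.415 to 0.027 for Rpl9-ps1, -0.109 to 0.00779 for Rplp1, -0.0989 to 0.0152 for Rplp2, -0.0749 to 0.059 for Rps6, -0.045 to 0.00259 for Rps19, -0.00761 to 0.0488 for Rpl10, -0.0045 to 0.106 for Rpl39, -0.0963 to 0.00112 for Rpl22 and -0.123 to 0.0486 for Rpl22l1.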
